A study of Mus musculus with 12 samples.

Results

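Irf1, Irf2, Irf3, Irf4, Irf5, Irf7, Irf8, Irf9 and Stat2 are transcription factor genes of the interferon pathway. They were picked by name, with earlier results of these data known. Their symbols were matched to the Ensembl gene IDs of the deposited count table, and all 9 were found among its 54232 genes. The cells were bone marrow derived macrophages (BMDMs), which are macrophages grown in the dish from marrow of wild-type C57BL/6 mice. After 5 days of culture they were kept for 24 h with or without medium conditioned by tumor cells (TCM), in the absence or presence of 500 nM R788. R788 is fostamatinib, an inhibitor of the tyrosine kinase Syk. The NB9464 TCM was taken from a mouse neuroblastoma line with amplified MYCN, and the NBT3L TCM from one that lacks the amplification. Of 6 groups with 2 libraries each, 3 had no R788, namely NS (no TCM either), NB9464 TCM and NBT3L TCM, and 3 had it, namely R788 (no TCM) and each TCM together with R788 (NB9464 TCM + R788, NBT3L TCM + R788). The question was whether secreted tumor factors make macrophages immunosuppressive, and whether blocking Syk counters this.

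NB9464 TCM was collected in DMEM without serum, whereas the culture medium of the BMDMs was RPMI with serum and M-CSF. Neither the medium of the NS cells nor the preparation of NBT3L TCM nor the R788 vehicle was stated. A difference between TCM and NS therefore cannot be told apart from a difference in base medium. The same holds between the TCMs for a difference in preparation, and with R788 for an effect of its vehicle. The labels do not say that the 2 libraries of a group came from separate mice or cultures, so p-values measure the spread between these libraries, which may be technical. The libraries held 44977847 to 56449685 counts. Library SJ8 (R788) had the fewest detected genes, 16149 against 17275 to 18343 in the others. All 8 macrophage markers were measured, with a summed level of 71196 to 85731 TPM (transcripts in every 1000000, a length-corrected unit). Neuroblastoma markers summed to 0.0893 to 2.27 TPM, with Th and Chga at 0 in all libraries, and dendritic cell markers to 0.301 to 0.964 TPM. In bulk RNA, fewer cells of a type and less RNA per cell cannot be told apart.

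Interferon regulatory factors (IRFs) bind a shared DNA element in promoters of interferon and interferon-stimulated genes. IRF3, IRF5 and IRF7 are switched on by phosphorylation downstream of pattern-recognition receptors and drive the interferon genes themselves. Type I interferon then acts through its receptor and the kinases JAK1 and TYK2 on ISGF3, a complex in which STAT2 and IRF9 are joined by a further STAT protein. IRF7, STAT2 and IRF9 are both parts and targets of this circuit, so their transcripts rise with interferon signaling. IRF1 is induced mainly by interferon gamma, IRF2 opposes it at many promoters, IRF8 is a lineage factor of macrophages, and IRF4 is tied to alternative activation. Phosphorylation of the proteins was not measured in these libraries. All 9 are protein-coding genes, placed here on GRCm38 (mm10) with 1-based GENCODE positions. The member that amplifies type I interferon production and the 2 ISGF3 subunits were Irf7 (ENSMUSG00000025498) on chromosome 7, 141262706 to 141266481, Stat2 (ENSMUSG00000040033) on chromosome 10, 128270559 to 128292849, and Irf9 (ENSMUSG00000002325) on chromosome 14, 55603571 to 55610030. The regulators of inflammatory genes were Irf1 (ENSMUSG00000018899) on chromosome 11, 53770014 to 53778374, and Irf5 (ENSMUSG00000029771) on chromosome 6, 29526625 to 29541871. The others were Irf2 (ENSMUSG00000031627) on chromosome 8, 46739732 to 46847458, Irf3 (ENSMUSG00000003184) on chromosome 7, 44997648 to 45002848, Irf4 (ENSMUSG00000021356) on chromosome 13, 30749226 to 30766976, and Irf8 (ENSMUSG00000041515) on chromosome 8, 120736358 to 120756694.

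The promoters of Irf7, Stat2, Irf9 and Irf1 are shown because the first 3 genes were the members called lower with R788 in all 3 media and the fourth is a regulator with a different pattern. Each is the 300 bases from 250 before to 50 after a RefSeq transcript start on GRCm38.p6, written 5′ to 3′ on the strand of the gene. Capitals mark a match to GAAANNGAA (ISRE-like, the core of the element bound by ISGF3 and IRFs) or TTCNNNGAA (GAS-like, bound by STAT dimers), searched on both strands.
Irf7, chr7:141266375-141266674, minus strand: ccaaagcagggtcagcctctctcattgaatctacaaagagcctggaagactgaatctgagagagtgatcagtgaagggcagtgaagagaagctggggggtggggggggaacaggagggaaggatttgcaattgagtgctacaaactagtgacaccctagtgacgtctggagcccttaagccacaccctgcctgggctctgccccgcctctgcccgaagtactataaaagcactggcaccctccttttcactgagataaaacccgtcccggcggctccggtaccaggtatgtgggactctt
Stat2, chr10:128270248-128270547, plus strand: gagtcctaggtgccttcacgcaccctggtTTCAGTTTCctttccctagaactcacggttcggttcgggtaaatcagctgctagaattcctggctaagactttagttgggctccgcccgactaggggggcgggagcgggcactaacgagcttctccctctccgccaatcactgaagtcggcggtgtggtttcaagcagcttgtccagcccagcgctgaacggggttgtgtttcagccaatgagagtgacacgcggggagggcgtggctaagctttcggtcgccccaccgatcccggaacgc
Irf9, chr14:55603735-55604034, plus strand: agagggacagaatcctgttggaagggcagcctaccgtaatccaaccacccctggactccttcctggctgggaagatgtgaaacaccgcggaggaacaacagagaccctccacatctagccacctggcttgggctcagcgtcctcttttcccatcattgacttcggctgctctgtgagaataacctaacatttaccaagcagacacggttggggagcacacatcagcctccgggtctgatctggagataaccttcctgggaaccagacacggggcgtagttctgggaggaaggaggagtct
Irf1, chr11:53769764-53770063, plus strand: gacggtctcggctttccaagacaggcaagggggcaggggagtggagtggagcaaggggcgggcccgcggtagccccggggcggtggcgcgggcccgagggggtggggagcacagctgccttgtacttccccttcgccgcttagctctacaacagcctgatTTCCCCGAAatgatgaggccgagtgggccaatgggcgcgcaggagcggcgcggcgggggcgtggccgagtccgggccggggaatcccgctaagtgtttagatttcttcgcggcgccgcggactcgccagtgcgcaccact
The Stat2 window held TTCAGTTTC, an ISRE-like match on the minus strand, at bases 30 to 38 of the window. The Irf1 window held the GAS-like TTCCCCGAA at bases 161 to 169. Among the other members, Irf2 had 1 match to each motif, and the first of the 2 listed Irf8 promoters had 2 GAS-like matches. The listed promoters of Irf3, Irf4, Irf5, Irf7 and Irf9 held neither set of letters. Of 32817 mouse promoters of this length, 8.6% held an ISRE-like and 8.3% a GAS-like match. A match is a description of the letters, and the absence of one says nothing about binding.

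On the TPM scale, with the gene lengths supplied with the counts, Irf7 ranked highest of the 9 genes in NS. On the same scale Irf7 ranked lowest except Irf4 in NB9464 TCM + R788. Its mean level was 425 TPM in NS, 107 in NB9464 TCM, 147 in NBT3L TCM, 72.5 in R788, 14.6 in NB9464 TCM + R788 and 23.8 in NBT3L TCM + R788. Irf5, the regulator of inflammatory cytokine genes, had the narrower range of 132 to 285 TPM and ranked highest of the members in 4 of the 6 groups. These ranks between genes depend on the lengths used. The length used for Irf7 was its whole gene span, because its merged exons left no gap. A shorter length would raise the TPM of Irf7, so its low rank in NB9464 TCM + R788 was not established. Stat2 was at 110 TPM in NS and 22.5 TPM in NBT3L TCM + R788, with NB9464 TCM + R788 lower still, and Irf9 ranged from 22.4 to 61.2 TPM. Irf8 lay between 49.5 and 61.7, Irf1 between 21.9 and 44.7 and Irf3 between 29.9 and 49.1 TPM. Irf2 was lowest, at 17.8 TPM, in NBT3L TCM + R788 and at 29.9 TPM in NS. Irf4 did not exceed 1.93 TPM as a group mean.

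**Figure D1:**
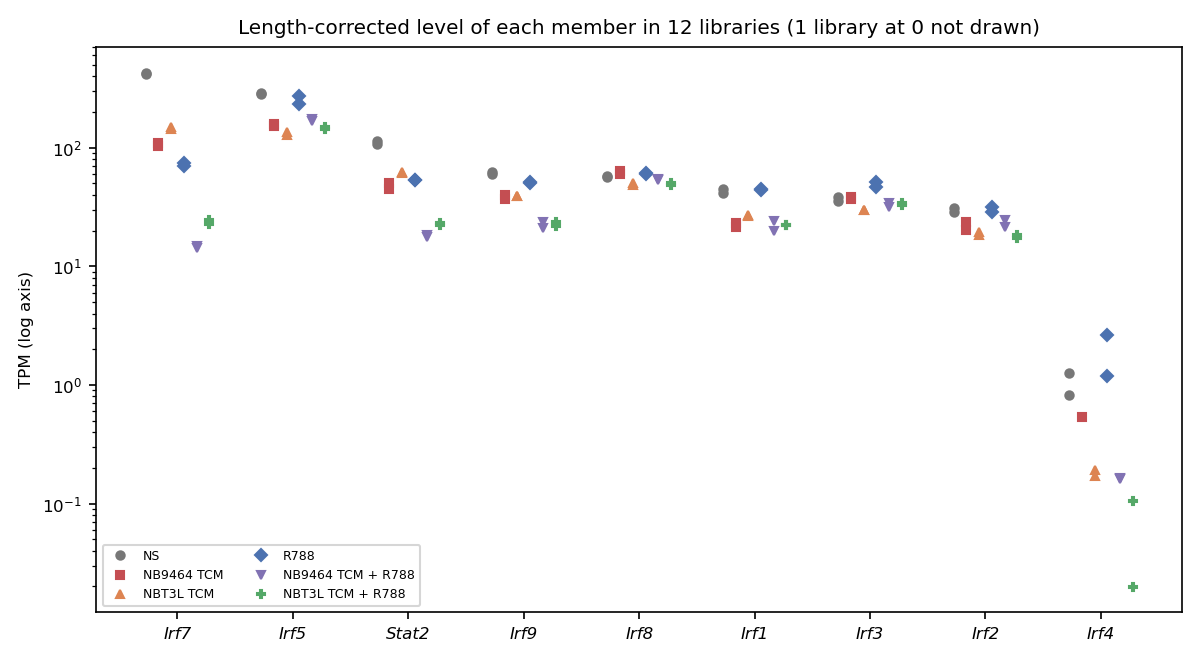
Level of each member in TPM (y axis, log scale) in each of the 12 libraries, with a marker shape and color per group (n = 2). Irf7 spans from 425 TPM (NS mean) to 14.6 TPM (NB9464 TCM + R788 mean), Irf8 stays between group means of 49.5 and 61.7, and Irf4 lies far below the rest; the Irf4 value of 0 in library SJ4 is not drawn.

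Differences between groups were tested on counts scaled by DESeq2 (normalized counts), with genes called at an adjusted p under 0.05 among 16281 tested genes. In NB9464 TCM against NS, 7 of the 9 members were called, 5 lower and 2 higher, where 34.1% of all tested genes were called. In NBT3L TCM against NS, 7 were called, 6 lower and 1 higher, against 35.3% of all genes. The median log2 fold change of the members was -0.62 and -0.29, beside 0.02 and 0.00 for all genes. Both comparisons use the same NS libraries.

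Irf7, the amplifier of type I interferon production, fell most among the called members in both media. Its normalized count was 25056 and 25319 in the NS libraries, 7585 and 7576 in NB9464 TCM, and 11613 and 11324 in NBT3L TCM. The 3 groups did not overlap, and NS was highest. The log2 fold change against NS was -1.73 ± 0.058 in NB9464 TCM (SE, DESeq2 adjusted p = 3.36e-192), a 3.32-fold fall. In NBT3L TCM it was -1.14 ± 0.058 (adjusted p = 1.81e-83), a 2.20-fold fall. Stat2, the transactivating subunit of ISGF3, had 10317 and 10141 normalized counts in NS, 5465 and 5161 in NB9464 TCM, and 7456 and 7625 in NBT3L TCM. It took the same order of groups as Irf7, with log2 fold changes of -0.95 ± 0.064 (adjusted p = 1.04e-47) and -0.44 ± 0.064 (adjusted p = 5.37e-11). Irf9, the DNA-binding subunit of ISGF3, had 5193 and 5162 normalized counts in NS, 3945 and 3847 in NB9464 TCM, and 4370 and 4359 in NBT3L TCM. Its falls were smaller, -0.41 ± 0.076 (adjusted p = 4.09e-07) and -0.25 ± 0.076 (adjusted p = 0.0043). The Irf9 call in NBT3L TCM was lost when library SJ1, SJ5 or SJ6 was left out, with adjusted p of 0.0515 to 0.0542.

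**Figure D2:**
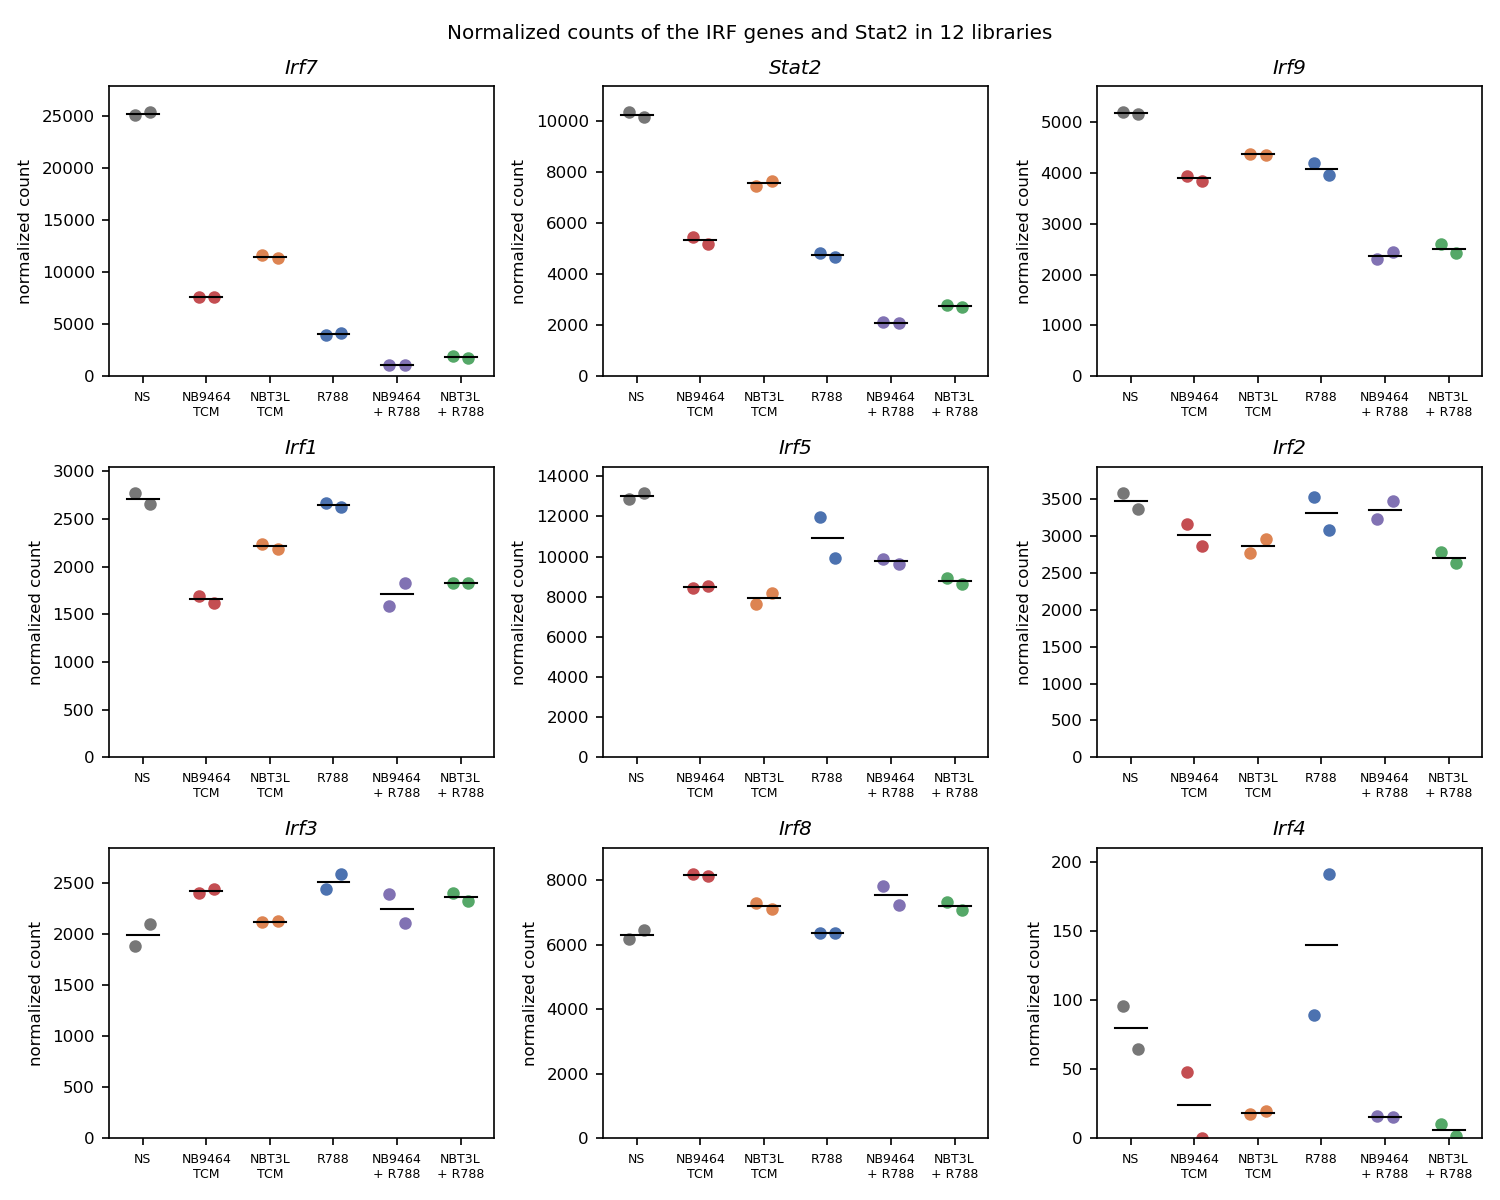
Normalized count (y axis, from 0, a scale per gene) of each member in each library, by group on the x axis; dots are libraries and the line is the mean of 2. Irf7 and Stat2 step down from NS through the TCM groups to TCM + R788 without overlap between groups, whereas the Irf2, Irf3 and Irf8 groups lie close together.

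Irf1, a transcriptional activator downstream of interferon gamma, had 2769 and 2654 normalized counts in NS, 1689 and 1624 in NB9464 TCM, and 2239 and 2187 in NBT3L TCM. It was lower with either TCM, by a log2 fold change of -0.71 ± 0.097 in NB9464 TCM (DESeq2 adjusted p = 2.32e-12) and -0.29 ± 0.097 in NBT3L TCM (adjusted p = 0.00838). The smaller fall was not called without library SJ1, SJ5 or SJ6 (adjusted p = 0.111, 0.0537 and 0.0897). Irf5 had 12878 and 13143 normalized counts in NS, 8409 and 8551 in NB9464 TCM, and 7640 and 8178 in NBT3L TCM. Both TCM groups lay below NS, at -0.62 ± 0.078 (adjusted p = 3.16e-14) and -0.72 ± 0.078 (adjusted p = 7.36e-19). Exons of Irf5 share 411 bases, 14.1% of their length, with Tnpo3 on the opposite strand, and whether counting used the strand was not stated. Irf2 had 3580 and 3364 normalized counts in NS, 3167 and 2864 in NB9464 TCM, and 2770 and 2966 in NBT3L TCM. It was called in NBT3L TCM only, at -0.28 ± 0.097 (adjusted p = 0.0146, and 0.157 and 0.167 without library SJ1 or SJ5). In NB9464 TCM the difference was -0.20 (95% interval -0.39 to -0.01, adjusted p = 0.0908), and the media did not differ detectably for Irf2 (0.07, interval -0.12 to 0.26).

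Irf8 and Irf3 were the members with higher calls. Irf8 had 6171 and 6453 normalized counts in NS, 8178 and 8114 in NB9464 TCM, and 7292 and 7103 in NBT3L TCM. The log2 fold change was 0.37 ± 0.063 in NB9464 TCM (DESeq2 adjusted p = 4.29e-08) and 0.19 ± 0.063 in NBT3L TCM (adjusted p = 0.0098), although the latter was -0.20 as a ratio of mean TPM, where the median gene stood at -0.40. The NBT3L call was not made by edgeR (adjusted p = 0.0538) and was lost without library SJ1 or SJ5 (adjusted p = 0.146 and 0.119). Irf3, the constitutive sensor-activated factor, had 1883 and 2103 normalized counts in NS, 2400 and 2441 in NB9464 TCM, and 2123 and 2126 in NBT3L TCM. It was higher in NB9464 TCM by 0.28 ± 0.099 (adjusted p = 0.0156), a call lost without library SJ1, SJ3 or SJ4 (adjusted p = 0.236, 0.0694 and 0.109). In NBT3L TCM its log2 fold change was 0.09 (interval -0.10 to 0.29). Irf4 had 95.8 and 64.5 normalized counts in NS, 47.8 and 0 in NB9464 TCM, and 17.3 and 19.5 in NBT3L TCM, and neither difference was called (adjusted p = 0.191 and 0.0965). Without library SJ3, the remaining NB9464 TCM library is at 0 and Irf4 was called lower there (adjusted p = 0.000311). Without library SJ3 or SJ4, it was also called lower in NBT3L TCM (adjusted p = 0.0111 and 0.0083).

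**Figure D3:**
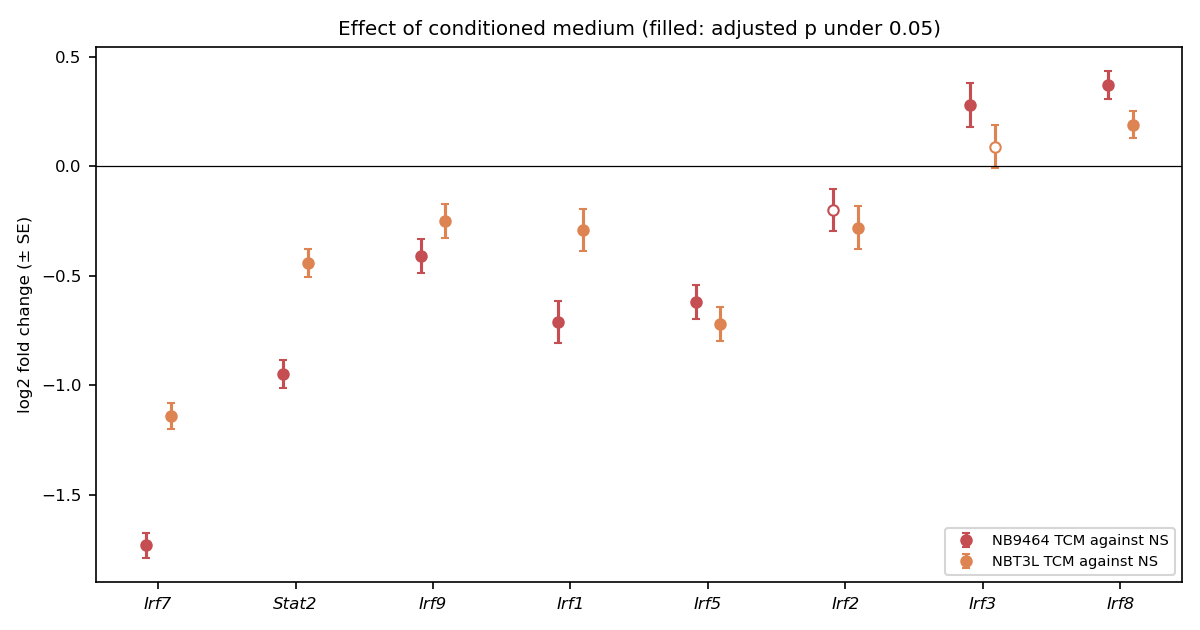
DESeq2 log2 fold change ± SE (y axis) of 8 members (x axis) in NB9464 TCM (red) and NBT3L TCM (orange) against NS; filled points have an adjusted p under 0.05, and Irf4 is left out for its low counts. Irf7 lies lowest in both media (-1.73 and -1.14) and Irf8 is called higher in both (0.37 and 0.19), although its NBT3L TCM value was -0.20 as a ratio of TPM.

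The TCM of the MYCN-amplified line was then compared directly with that of the other line. Of the members, 4 were called in NB9464 TCM against NBT3L TCM, 3 lower and 1 higher, where 9.40% of all genes were called. Irf7 was 1.51-fold lower (log2 fold change -0.60 ± 0.059, DESeq2 adjusted p = 5.53e-22), Stat2 1.42-fold lower (-0.51 ± 0.065, adjusted p = 4.6e-13) and Irf1 1.34-fold lower (-0.42 ± 0.098, adjusted p = 0.000374) in NB9464 TCM. Irf8 was 1.13-fold higher (0.18 ± 0.063, adjusted p = 0.0401), a call that edgeR did not make (adjusted p = 0.098), and that was lost with counts divided by 2 and without any single library but SJ7 or SJ8 (adjusted p of 0.0534 to 0.36). Irf9 differed by -0.16 (interval -0.31 to -0.01, adjusted p = 0.157). In the presence of R788, 3 members were called between the TCM groups, against 9.62% of all genes. Irf7 was again lower with NB9464 TCM (-0.77 ± 0.069, adjusted p = 4.38e-26), as was Stat2 (-0.39 ± 0.069, adjusted p = 6.45e-07). Irf2 was higher (0.31, adjusted p = 0.019), and this call was lost on leaving out any library of either group.

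The members that take part in or amplify ISGF3 signaling, Irf7, Stat2 and Irf9, were lower with R788 in every medium. Without TCM, 5 of 9 members were called, 4 lower and 1 higher, where 26.6% of all genes were called. In NB9464 TCM, 3 were called, all lower, against 14.5%, and in NBT3L TCM 4, all lower, against 12.6%. The median over the members was -0.07, -0.11 and -0.28, beside -0.003 to 0.003 for all genes.

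Irf7 had 4008 and 4138 normalized counts in R788, 1095 and 1076 in NB9464 TCM + R788, and 1926 and 1775 in NBT3L TCM + R788. In each medium both libraries with R788 lay well below both without it. The log2 fold change with R788 in no TCM was -2.63 ± 0.059, with NB9464 TCM -2.80 ± 0.066 and with NBT3L TCM -2.63 ± 0.063, falls of 6.18-fold, 6.98-fold and 6.20-fold. DESeq2 returned adjusted p of 0 for all 3, below the smallest number the software holds. Against the fall without TCM, the fall in NB9464 TCM differed by -0.18 (adjusted p = 0.181), and that in NBT3L TCM had a 95% interval for the difference of -0.17 to 0.16. Stat2 had 4828 and 4681 normalized counts in R788, 2105 and 2086 in NB9464 TCM + R788, and 2796 and 2698 in NBT3L TCM + R788. Its falls with R788 were -1.11 ± 0.064 without TCM (adjusted p = 2.43e-64), -1.34 ± 0.067 in NB9464 TCM (adjusted p = 1.1e-85) and -1.46 ± 0.066 in NBT3L TCM (adjusted p = 1.05e-104). Irf9 had 4200 and 3957 normalized counts in R788, 2306 and 2444 in NB9464 TCM + R788, and 2606 and 2418 in NBT3L TCM + R788. Its log2 fold changes were -0.34 ± 0.075 (adjusted p = 4.4e-05), -0.71 ± 0.077 (adjusted p = 2.34e-18) and -0.80 ± 0.077 (adjusted p = 7.28e-23) in the same order, and its groups with and without R788 did not overlap in any medium.

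**Figure D4:**
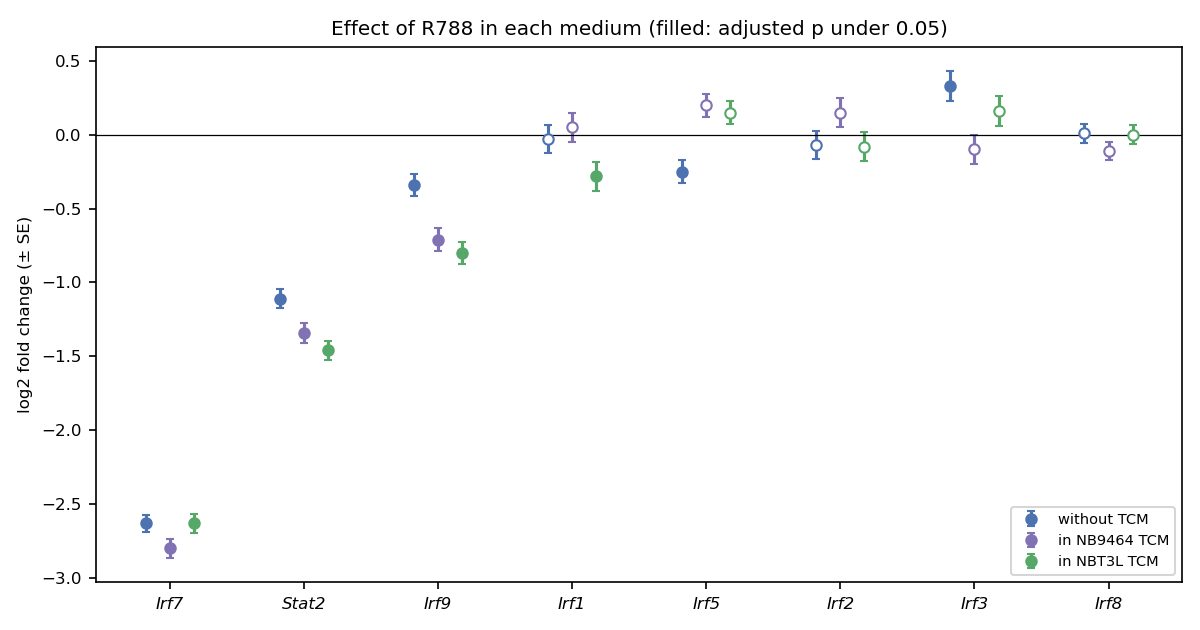
DESeq2 log2 fold change ± SE (y axis) of 8 members (x axis) with R788 against the same medium without it: no TCM (blue), NB9464 TCM (purple) and NBT3L TCM (green); filled points have an adjusted p under 0.05. Irf7, Stat2 and Irf9 lie below 0 in all 3 media, and the other members lie between -0.28 and 0.33.

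In the DESeq2 fit of all libraries together, none of the remaining members was called in the same direction with R788 in more than 1 medium. Irf1 had 2667 and 2627 normalized counts in R788, 1588 and 1834 in NB9464 TCM + R788, and 1832 and 1825 in NBT3L TCM + R788. Its log2 fold change with R788 was -0.03 without TCM (interval -0.22 to 0.15) and 0.05 in NB9464 TCM (interval -0.15 to 0.24). In NBT3L TCM it was called lower (-0.28 ± 0.098, DESeq2 adjusted p = 0.0347), a call that edgeR did not make (adjusted p = 0.0757) and that was lost without either library of either group. Irf5 had 11955 and 9909 normalized counts in R788, 9878 and 9644 in NB9464 TCM + R788, and 8925 and 8632 in NBT3L TCM + R788. It was called lower without TCM (-0.25 ± 0.078, adjusted p = 0.00618), but the R788 libraries were far apart and leaving out SJ8 gave -0.12 (adjusted p = 0.131; 0.0648 without SJ2). In TCM the Irf5 change was 0.20 (adjusted p = 0.0516) and 0.15 (adjusted p = 0.209), and it was called higher in each TCM once SJ7 or SJ8 was left out. With only the libraries compared, DESeq2 also called Irf5 higher in NB9464 TCM and NBT3L TCM (adjusted p = 0.0092 and 0.0254). The lower call without TCM was lost in that setting (adjusted p = 0.0649).

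Irf3 had 2440 and 2587 normalized counts in R788, 2392 and 2110 in NB9464 TCM + R788, and 2409 and 2331 in NBT3L TCM + R788. It was called higher with R788 without TCM (0.33 ± 0.099, DESeq2 adjusted p = 0.00362, and 0.116 without library SJ1), and in the TCM groups the change was -0.10 and 0.16 (adjusted p = 0.552 and 0.334). Irf8 had 6376 and 6347 normalized counts in R788, 7828 and 7235 in NB9464 TCM + R788, and 7338 and 7074 in NBT3L TCM + R788. Its 95% intervals for the R788 effect were -0.11 to 0.14, -0.24 to 0.01 and -0.12 to 0.13 on the log2 scale. Irf2 had 3534 and 3083 normalized counts in R788, 3228 and 3474 in NB9464 TCM + R788, and 2783 and 2633 in NBT3L TCM + R788, with intervals of -0.26 to 0.12, -0.04 to 0.34 and -0.27 to 0.11. Irf4 had 89.1 and 191 normalized counts in R788, 15.9 and 15.6 in NB9464 TCM + R788, and 10.6 and 2.01 in NBT3L TCM + R788. No R788 effect on Irf4 was called with all libraries (log2 fold changes 0.80, -0.60 and -1.55, adjusted p = 0.618, 0.779 and 0.415).

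Interaction contrasts tested whether the R788 effect itself differed between media. For NB9464 TCM against no TCM, 3 members were called, 2 lower and 1 higher, where 12.5% of all genes were called, and for NBT3L TCM 3 were called, against 10.1%. The fall of Irf9 was larger by -0.37 ± 0.11 in NB9464 TCM (DESeq2 adjusted p = 0.0068) and by -0.45 ± 0.11 in NBT3L TCM (adjusted p = 0.000575). The fall of Stat2 was larger by -0.35 ± 0.092 in NBT3L TCM (adjusted p = 0.00227), and in NB9464 TCM it differed by -0.24 (adjusted p = 0.0631). The Irf5 effect differed by 0.45 ± 0.11 (adjusted p = 0.000676) and 0.40 ± 0.11 (adjusted p = 0.00419). The Irf3 effect differed by -0.44 ± 0.14 in NB9464 TCM (adjusted p = 0.0149), a call lost without library SJ1, SJ3, SJ4, SJ8 or SJ10. Between the TCMs, DESeq2 called 0 of 9 members, as did edgeR, and 0.706% of all genes were called. In DESeq2, 1 member, Irf1, had an unadjusted p under 0.05 there (0.0205).

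Relative to NS, TCM and R788 together gave the lowest levels of Irf7 and Stat2. In NB9464 TCM + R788, 6 members were called (5 lower, 1 higher; 39.5% of all genes), and in NBT3L TCM + R788 all 9 were called (7 lower, 2 higher; 39.8% of all genes). Irf7 was 23.2-fold lower in NB9464 TCM + R788 (log2 fold change -4.54 ± 0.065) and 13.6-fold lower in NBT3L TCM + R788 (-3.77 ± 0.062). Stat2 was 4.88-fold and 3.72-fold lower (DESeq2 adjusted p = 6.67e-256 and 1.84e-181), and Irf9 2.18-fold and 2.06-fold lower (adjusted p = 6.01e-47 and 9.49e-41). The higher calls were of Irf8 (0.26 and 0.19) and, in NBT3L TCM + R788, of Irf3 (0.25), but as ratios of mean TPM these were -0.07, -0.20 and -0.14, where the median gene stood at -0.31 and -0.38. In NBT3L TCM + R788 the Irf3 call was not made by edgeR (adjusted p = 0.0511) and was lost without SJ1, SJ5, SJ6, SJ11 or SJ12, and the Irf8 call was lost without SJ1 or SJ11 (adjusted p = 0.132 and 0.125). Irf4 was called lower in NBT3L TCM + R788 (-3.67 ± 1.1, adjusted p = 0.00224), a call lost without library SJ7, SJ9, SJ10 or SJ12.

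Against R788 alone, 6 members were called in NB9464 TCM + R788 (5 lower, 1 higher; 40.4% of all genes) and 8 in NBT3L TCM + R788 (7 lower, 1 higher; 41.4% of all genes). The log2 fold changes were -1.91 ± 0.067 and -1.14 ± 0.063 for Irf7, -1.18 ± 0.067 and -0.79 ± 0.066 for Stat2, and -0.78 ± 0.077 and -0.70 ± 0.077 for Irf9, all called by DESeq2. Irf4, low in counts, had the largest fitted changes, -3.15 and -4.48 (adjusted p = 0.00688 and 0.000131), and the former call was lost without SJ7, SJ8, SJ9 or SJ10. The higher call in each was Irf8, at 0.24 and 0.18, although as ratios of mean TPM these were -0.16 and -0.29, where the median gene stood at -0.40 and -0.48. The Irf8 call was lost without SJ9 in NB9464 TCM + R788 (adjusted p = 0.0547) and without SJ11 in NBT3L TCM + R788 (adjusted p = 0.154). TCM without R788 set against R788 without TCM gave 6 called members for NB9464 TCM (38.1% of all genes) and 7 for NBT3L TCM (42.5%). Irf7 was higher in NB9464 TCM than in R788 (0.90 ± 0.06, DESeq2 adjusted p = 3.27e-49), as was Stat2 by a smaller margin (0.16 ± 0.065, adjusted p = 0.036). On mean TPM Stat2 ran the other way, at 47.9 in NB9464 TCM and 53.9 in R788. Across media, NB9464 TCM against NBT3L TCM + R788 gave 4 called members (17.0% of all genes) and NBT3L TCM against NB9464 TCM + R788 gave 5 (20.8%). For the contrasts of TCM without R788 against R788, and those across media, the only fit examined for each member was DESeq2 with all libraries.

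The 6 groups were placed in order of level for each member and neighbours were compared. Of 45 neighbouring pairs, 16 differed, in comparisons that called 9.40% to 42.5% of all genes. The 16 include calls lost when a single library was left out, namely Irf1 between NBT3L TCM and NBT3L TCM + R788, Irf9 between NS and NBT3L TCM, and Irf5 between NS and R788. For pairs of TCM without R788 against R788, or across media, the fits without a library were not examined for each member. For Irf7 and Stat2 all 5 neighbouring pairs differed on normalized counts. The shared order was NS, NBT3L TCM, NB9464 TCM, R788, NBT3L TCM + R788 and NB9464 TCM + R788. The Stat2 step from NB9464 TCM to R788 was small (0.16, DESeq2 adjusted p = 0.036). On mean TPM that step ran the other way, at 47.9 in NB9464 TCM and 53.9 in R788. Irf9 went from NS to NBT3L TCM, R788, NB9464 TCM, NBT3L TCM + R788 and NB9464 TCM + R788, and its middle 3 groups and its last 2 groups did not differ from their neighbours among them. Irf1 was highest in NS and R788, which did not differ (adjusted p = 0.847), then came NBT3L TCM, and the last 3 groups did not differ in steps. For Irf5 only NS and R788, its highest groups, differed as neighbours, and for Irf8 only NBT3L TCM and R788 (DESeq2 adjusted p = 0.0133). On mean TPM this Irf8 step ran the other way, at 49.5 in NBT3L TCM and 60.6 in R788. No neighbouring pair differed for Irf2, Irf3 or Irf4.

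The lists that follow hold other genes of the pathway and were also chosen with earlier results of these data known. Beside their counts, the shares of all genes called were 34.1% in NB9464 TCM and 35.3% in NBT3L TCM against NS, and 26.6%, 14.5% and 12.6% with R788 in no TCM, NB9464 TCM and NBT3L TCM. Interferon ligand genes were near the detection limit at the end of the 24 h. None of 12 (Ifnb1, 6 type I alpha or related genes, Ifne, Ifnk, Ifng, Ifnl2 and Ifnl3) passed the count filter. Ifnb1, the interferon beta gene, had 8 and 10 counts in the NBT3L TCM libraries and 0 in the other 10 libraries, and a count of 0 allows up to 3 counts by counting error alone. No other ligand gene exceeded 2 counts.

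Of 9 interferon receptor and Janus kinase genes, 3 were higher and 3 lower by call in NB9464 TCM against NS, and 4 higher and 2 lower in NBT3L TCM, with list medians of 0.08 and 0.23. Jak2, a kinase of the interferon gamma receptor, had 2165 ± 60.8 normalized counts in NS and rose with NB9464 TCM to 5656 ± 269 and with NBT3L TCM to 7918 ± 555 (SD, n = 2). Ifngr1, which encodes the ligand-binding chain of that receptor, fell from 7843 ± 52.3 to 4447 ± 158 and 4225 ± 14.9. With R788, 3, 5 and 3 genes of the list were called higher in no TCM, NB9464 TCM and NBT3L TCM, and the others were not called. Ifngr1 was among the higher calls in TCM, with log2 fold changes of 0.53 and 0.27 (DESeq2 adjusted p = 6.56e-11 and 0.00379).

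Of 21 tested genes for sensors, adaptors and kinases upstream of IRF3, IRF5 and IRF7, 5 were higher and 10 lower by call in NB9464 TCM, and 6 higher and 8 lower in NBT3L TCM, against NS. Ikbke, a kinase that phosphorylates IRF3 and IRF7, rose from 6716 ± 161 normalized counts to 19940 ± 202 and 17867 ± 137 (SD, n = 2). Tmem173, which encodes the cytosolic DNA adaptor STING, fell from 2347 ± 182 to 1040 ± 97.8 and 705 ± 25.2. With R788, 8, 7 and 8 genes of the list were called lower and 4, 2 and 3 higher in no TCM, NB9464 TCM and NBT3L TCM. Zbp1, a sensor of Z-form nucleic acid that is itself induced by interferon, fell, with log2 fold changes of -2.48, -2.89 and -3.04. Ticam2, the TLR4 adaptor TRAM, rose with R788 by 0.52, 0.82 and 0.86.

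Of 12 inhibitors of interferon signaling, 4 were higher and 5 lower by call in NB9464 TCM, and 6 higher and 3 lower in NBT3L TCM. Socs3, a feedback inhibitor of cytokine receptor signaling, rose from an NS level of 489 ± 2.64 normalized counts to 18505 ± 90.5 and 20825 ± 365 (SD, n = 2). Socs1, which inhibits Janus kinases, rose from 248 ± 47 to 1121 ± 48.5 and 2645 ± 14.1. Usp18, the ISG15 protease that blocks the type I receptor, fell in NB9464 TCM (-0.56, DESeq2 adjusted p = 0.000106). With R788 the log2 fold changes of Usp18 were -2.23, -2.79 and -2.49 in no TCM, NB9464 TCM and NBT3L TCM, and those of Socs3 were -0.77, -0.48 and -0.68, all called lower. The list held 6, 2 and 3 lower and 3, 2 and 2 higher calls with R788.

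Targets of ISGF3 are antiviral genes induced by type I interferon. Of 26 such genes, 26 were called lower in NB9464 TCM (list median -0.90) and 15 in NBT3L TCM (median -0.32) against NS, and the other 11 were not called in NBT3L TCM. With R788, 26, 25 and 25 were called lower in no TCM, NB9464 TCM and NBT3L TCM, with medians of -1.63, -2.03 and -1.88. Samhd1, a dNTP hydrolase, was the gene not called in both TCMs. The median of all tested genes was between -0.003 and 0.021 in these comparisons. Between the TCMs, 21 of the genes were called lower with NB9464 TCM and 5 were not called (median -0.58). In NBT3L TCM + R788 against R788, 18 were called lower, 2 higher (Bst2, 0.46, and Samhd1, 0.24) and 6 were not called. Some of these genes are named because they had the 2 largest falls in a comparison. Ifit2, an RNA-binding antiviral gene, had 7022 ± 380 normalized counts in NS and fell with NB9464 TCM to 1023 ± 218 and with NBT3L TCM to 2268 ± 20 (SD, n = 2). The Ifit2 level was 1077 ± 150 in R788, 256 ± 11.9 with NB9464 TCM added and 474 ± 34.1 with NBT3L TCM added. With R788 the log2 fold changes were -3.12 for Cmpk2 and -3.43 for Mx1, an antiviral GTPase gene, in NB9464 TCM, and -3.30 for Ifit1 and -3.21 for Ifit3 in NBT3L TCM.

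**Figure D5:**
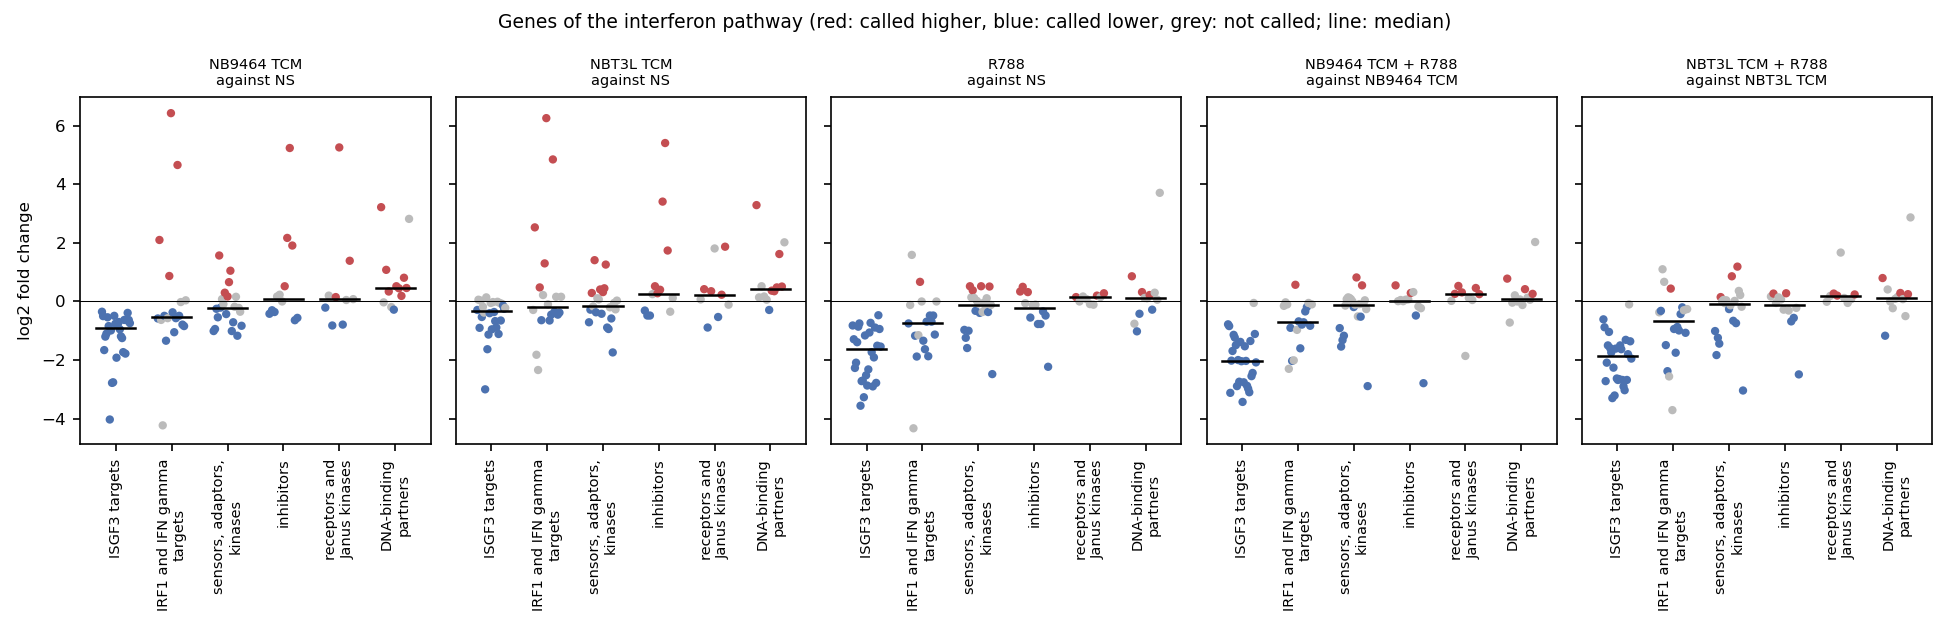
DESeq2 log2 fold change (y axis) of each tested gene in 6 lists (x axis), in 5 comparisons (panels); red and blue points were called higher and lower, grey points were not called, and the line is the list median. ISGF3 targets lie below 0 with R788 in all 3 media (medians -1.63, -2.03 and -1.88), while receptors and Janus kinases have medians of 0.15, 0.25 and 0.19.

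IRF1 and interferon gamma targets were mixed. Among 18 genes, NB9464 TCM gave 4 higher and 9 lower calls, and 5 higher and 6 lower in NBT3L TCM (medians -0.53 and -0.20). Gbp3, a guanylate-binding protein gene, fell from an NS level of 1107 ± 41.5 normalized counts to 437 ± 7.04 and 711 ± 20.7 (SD, n = 2). Nos2, the inducible nitric oxide synthase gene, rose instead, from 71.3 ± 5.15 to 1797 ± 37.9 and 2057 ± 31.1. Cd274, which encodes PD-L1, rose from 1642 ± 20.9 to 7041 ± 108 and 9461 ± 86.7. With R788, 11, 9 and 10 genes were called lower and 1 higher in each medium, the higher one being Icam1 (0.67, 0.57 and 0.44).

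Of 12 genes for DNA-binding partners and cofactors of IRFs, 8 were higher and 1 lower by call in NB9464 TCM, and 6 higher and 1 lower in NBT3L TCM. Batf, an AP-1 factor that pairs with IRF4 and IRF8, rose from an NS level of 265 ± 32.2 normalized counts to 2474 ± 242 and 2580 ± 76.2 (SD, n = 2). It rose further with R788, to 4236 ± 208 and 4490 ± 191. With R788, 3 genes of this list were called higher in each medium and 3, none and 1 lower in no TCM, NB9464 TCM and NBT3L TCM. Of 7 further STAT and IRF genes, 6 were tested, with 1 higher and 2 lower calls in NB9464 TCM and 1 higher and 1 lower in NBT3L TCM. Stat3, the mediator of IL-6 and IL-10 signals, rose from 6440 ± 17.9 to 9312 ± 168 and 10353 ± 89.2, while Stat6, the mediator of IL-4 signals, was lower (-0.23 and -0.32, DESeq2 adjusted p = 0.00058 and 3.86e-07). With R788, 1, 2 and 2 genes of this list were called lower in no TCM, NB9464 TCM and NBT3L TCM.

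Genes linked in macrophages to IRF4 and IRF5 stand beside those members. Of 8 genes linked to IRF4, 6 were tested. In NB9464 TCM 4 were called higher and 1 lower, and in NBT3L TCM 3 higher and 1 lower. Arg1, the arginase of alternative activation, rose from an NS level of 136 ± 16.3 normalized counts to 550 ± 45.9 and 1044 ± 67.5, and Mrc1, the mannose receptor gene, fell from 27165 ± 1550 to 2664 ± 209 and 4570 ± 206 (SD, n = 2). With R788, 3, 2 and 2 genes were called lower and 1, 0 and 0 higher in no TCM, NB9464 TCM and NBT3L TCM. Arg1 fell in each medium (-2.62, -2.09 and -1.34). Of 5 cytokine genes linked to IRF5, 4 were tested, and all 4 were called higher in each TCM, whereas Irf5 fell. Tnf rose from 2909 ± 181 to 8835 ± 1.06 and 10178 ± 51.7, and Il12a, at 0 in both NS libraries, reached 388 ± 0.636 and 562 ± 47.1. With R788, 2 genes were called lower without TCM, 1 higher in NB9464 TCM, and 1 higher and 2 lower in NBT3L TCM. Of the 4 tested genes, Il12a, Il12b and Il6 had at most 0, 6 and 4 counts in NS and 0 in R788. At least 1 of the 2 lower calls without TCM was therefore at the detection limit.

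Granule protein markers of neutrophils and their precursors moved with TCM, at a summed 138 to 162 TPM in the 4 libraries without TCM and 43.7 to 64.5 TPM in the 8 with it (5 of 6 markers tested). The B cell list (2 of 5 tested, Pax5 at 0 in every library) summed to 13.9 to 18.2 TPM in TCM + R788 and 4.35 to 9.48 TPM elsewhere. Of the T cell list only Cd4 was tested, at 0.115 to 3.72 TPM as a sum. The part of these cells in the member results was not tested.

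Genes whose log2 normalized counts followed a member most closely over the 12 libraries were sought among 10710 genes averaging 100 or more normalized counts. The points share libraries and conditions, so Pearson's r is a description. Irf7 was most like Gbp3 (r = 0.994), Cmpk2 (0.992) and Sp100 (0.992). Stat2 was most like Rnf213, Ifi202b and Cmpk2 (0.995 each), and Irf9 like Oasl2 (0.989), Oas2 (0.988) and Uba7 (0.988). Among members, r was 0.992 for Irf7 with Stat2, 0.949 for Irf7 with Irf9 and 0.972 for Stat2 with Irf9. The nearest genes of the others were Il12rb2, Mtmr10 and Prkch for Irf1 (0.981, 0.976 and 0.965), Cttnbp2nl, Lnx2 and H2afz for Irf5 (0.975, 0.962 and 0.959), and Snhg12, Dusp2 and Ttc39c for Irf8 (0.970, 0.955 and 0.954). For Irf2 they were Pknox1, Ahcyl1 and Cask (0.938, 0.915 and 0.912), for Irf3 Gmip, Msl1 and Dtx3 (0.907, 0.893 and 0.888), and for Irf4 Helz, Hspa4l and Ptpn9 (0.949, 0.934 and 0.925). Irf1 and Irf8 ran opposite to each other (r = -0.932).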

How the data were processed

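RNA of 12 mouse BMDM libraries was sequenced after poly(A) selection. The authors deposited whole-number read counts per Ensembl gene, not normalized. Per the submitters' processing notes, STAR 2.6.1d, Salmon 1.4.0, SAMtools 1.9, Picard 2.26 and MultiQC 1.11 were used with mm10. Strand and multimapping settings were not given in the sources used here. The labels state paired-end reads and 2 libraries per group, whereas the methods state single reads in triplicate. Even values made up 65.2% to 67.9% of counts from 1 to 40 per library, so counts divided by 2 were tried. Symbols came from GENCODE M21, which held 54165 of the IDs.

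Genes with at least 10 counts in 2 libraries were fitted by the study's tool, DESeq2 (version 1.42.0, R 4.3.3), with 6 group means over 12 libraries, median-of-ratios scaling, two-sided Wald tests, unshrunken log2 fold changes and Benjamini-Hochberg adjustment within each contrast. The script was tested on simulated data. TPM were computed from counts and the lengths in the table. With 2 libraries per group, permutation tests are uninformative. Members, lists and the rule for named genes were chosen with earlier results of these data known. The rule took all members, per list and comparison at most the 2 largest rises and falls among called genes averaging 100 normalized counts, and the 3 nearest genes per member. Alternatives were edgeR 4.0.16, TMM scaling, no filter, a mean of 50 counts, only the libraries compared, counts divided by 2 and leaving out each library.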

Additional observations from a re-analysis of the deposited data

Results flagged for a closer look

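The effect of R788 differed between media for 4 members, by the DESeq2 test of the difference itself. Relative to the effect without TCM, it was lower for Irf9 by -0.37 ± 0.11 in NB9464 TCM and -0.45 ± 0.11 in NBT3L TCM, and for Stat2 by -0.35 ± 0.092 in NBT3L TCM (SE). For Irf5 it was higher by 0.45 ± 0.11 in NB9464 TCM and 0.40 ± 0.11 in NBT3L TCM. For Irf3 it was lower by -0.44 ± 0.14 in NB9464 TCM. The R788 libraries stood at 11955 and 9909 normalized counts of Irf5, and exons of Irf5 overlap Tnpo3. The calls of Irf9 in NB9464 TCM (lost without SJ2, SJ3 or SJ9), of Irf5 in NBT3L TCM (lost without SJ5) and of Stat2 (lost without SJ12) each passed with all libraries. The cause was not tested.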

How the results depend on the processing

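The alternatives were fitted for all 18 contrasts. The values that follow cover 14 of them, not TCM without R788 against R788 or against the other TCM with R788. Of 2268 values of the members, 2167 kept their side of the threshold, 76 lost the call, 23 gained one and 2 reversed with a call. A change of direction without a call in either fit was counted among the 2167. The reversals were of Irf4, whose NB9464 TCM libraries held 47.8 and 0 normalized counts. Leaving out single libraries gave -1.60 to 6.52 for Irf4 in NB9464 TCM + R788 against NB9464 TCM, and -6.75 to 1.37 in NB9464 TCM against NBT3L TCM, where 6.52 and -6.75 arose without SJ3 and the other ends without SJ4. On mean TPM, an alternative chosen after seeing the data, Irf8 was -0.20 in NBT3L TCM, -0.07 in NB9464 TCM + R788 and -0.20 in NBT3L TCM + R788 against NS, and -0.16 and -0.29 in the latter groups against R788, and Irf3 was -0.14 in NBT3L TCM + R788 against NS. The median of all genes moved on that scale by -0.24 to -0.48 in TCM against no TCM.

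Leaving out single libraries, members called numbered 3 to 8 in NBT3L TCM against NS (3 without SJ1 or SJ5) and 1 to 3 for the NB9464 TCM interaction (1 without SJ3). Over all genes, calls numbered 1432 to 2885 for R788 in NB9464 TCM, 1173 to 2566 for R788 in NBT3L TCM, 795 to 2007 between the TCMs, 852 to 1981 between them with R788, 1344 to 2974 and 1038 to 2583 for the interactions with NB9464 TCM and NBT3L TCM, and 46 to 234 for the interaction between TCMs. The latter, 115 with all libraries, was 21 by edgeR and 272 with only the libraries compared. No paired analysis was possible because the library numbers, SJ1 to SJ12, are not shared between groups. Depth limits Irf4 and the ligand genes, whose counts were low.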
